A study of Mus musculus with 8 samples.

Results

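The genes described here are *Isg15* and 4 genes of ISGylation, the covalent attachment of the ubiquitin-like protein ISG15 to other proteins. They were chosen by their known function, and their rows are 5 of the 16889 genes in the deposited table of unique molecular identifiers (UMIs, molecule tags that each count as 1 transcript). All 5 passed the filter on low counts, which 11387 genes passed in all cells summed and 11069 genes passed in sums by cluster. The choice was made with earlier results of these data known, so the differences between conditions below are values and are not independent evidence for the choice.

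CD11b+ cells with CCR2 or CD64 on their surface were sorted from the lamina propria of the colon of female littermates aged 6 to 12 weeks that all carried the floxed CD98hc gene (*Slc3a2*) and the Cx3cr1-CreER-YFP allele (CD98hcΔCX3CR1). Control mice (n = 4) received 100 µl corn oil on 5 days, and cKO mice (n = 4) received 100 µl tamoxifen in corn oil at 20 mg/ml on the same days. Cells were taken on day 7, and each mouse filled 1 well of a 3′ single-cell kit. The Cre is driven by the *Cx3cr1* promoter, so cells that do not use it are not targeted, and tamoxifen and the deletion cannot be told apart because only cKO mice received the drug.

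ISG15 is conjugated in a 3-step cascade. UBA7 is the activating enzyme (E1), UBE2L6 the conjugating enzyme (E2), and HERC6 the main ligase (E3) in the mouse, while USP18 is the protease that takes ISG15 off again. USP18 also binds the type I interferon receptor and restrains its signaling, a role that does not need the protease. All 5 genes are known interferon-stimulated genes, and ISG15 has in addition been described as a secreted protein that acts on lymphocytes through the integrin LFA-1.

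By the GENCODE vM21 annotation (GRCm38, also called mm10) *Isg15* (ENSMUSG00000035692) lies at chr4:156199424-156200818 on the minus strand, and *Usp18* (ENSMUSG00000030107) at chr6:121245906-121270917 on the plus strand. *Ube2l6* (ENSMUSG00000027078) lies at chr2:84798828-84810335, *Herc6* (ENSMUSG00000029798) at chr6:57581000-57664632 and *Uba7* (ENSMUSG00000032596) at chr9:107975505-107984060, all on the plus strand. The genes in the table that overlap a member, Gm44148 at *Usp18* and Gm20661 at *Uba7*, had 3 and 2 UMIs in the cells kept.

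Interferon-stimulated genes are commonly bound upstream of their start by interferon regulatory factors (IRFs) and STAT complexes, so the sequences upstream of the start (RefSeq promoters, GRCm38.p6) are shown to compare the members. 4 of the 5 members had an entry in the table used. The 250 bases upstream of each start were searched on both strands for GAAANNGAAA (the core of the interferon-stimulated response element, ISRE), AANNGAAA (an IRF core, which every ISRE core also holds) and TTCNNNGAA (a STAT motif, GAS), and matches are in capitals. The first 3 lines run from base -120 to base -1 before the start at chr4:156200819-156200938 (minus strand), chr2:84798708-84798827 (plus strand) and chr6:57580872-57580991 (plus strand), and the last from -38 to -9 at chr9:107975529-107975558 (plus strand). Bases are counted from the RefSeq start, and the 2 annotations differ at *Herc6* and *Uba7*. At *Herc6* the stretch ends at 57580991, while the GENCODE gene starts at 57581000. At *Uba7* the GENCODE gene starts at 107975505, so that by GENCODE the *Uba7* stretch lies inside the gene.
Isg15: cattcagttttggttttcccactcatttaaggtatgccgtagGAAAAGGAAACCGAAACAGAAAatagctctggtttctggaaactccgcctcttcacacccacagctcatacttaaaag
Ube2l6: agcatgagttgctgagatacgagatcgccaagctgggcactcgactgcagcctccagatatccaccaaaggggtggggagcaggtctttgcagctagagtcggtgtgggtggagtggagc
Herc6: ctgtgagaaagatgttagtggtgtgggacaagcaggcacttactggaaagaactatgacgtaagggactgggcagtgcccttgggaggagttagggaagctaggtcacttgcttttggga
Uba7: actcagtctagTTTCACTTttggtttcctg

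The *Isg15* sequence held 3 overlapping ISRE cores between bases -78 and -57, and a further IRF core on the other strand between -128 and -121. *Uba7* held 1 IRF core, on the other strand between -27 and -20, and no ISRE core. No motif of the 3 was found in the 250 bases of *Ube2l6* or *Herc6*, and none of the 4 members held a GAS match. Of all 32851 promoters in the table, 2.98% held an ISRE core in the same window, 21.3% an IRF core and 7.02% a GAS match. These matches are letters in a window and were not tested for binding.

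In total 3213 cells passed the filters (1863 control, 1350 cKO), with 85 to 724 cells and 589135 to 3762314 UMIs per control mouse and 83 to 484 cells and 497531 to 2486236 UMIs per cKO mouse. Control replicate 3 and cKO replicate 5 had the fewest cells. *Slc3a2*, the targeted gene, had 337 ± 117 counts per 1000000 UMIs (CPM, SD, n = 4) in control mice and 320 ± 27.9 CPM in cKO mice, and a 3′ count does not check whether the floxed part was deleted. Of the barcode sequences kept, 8 occurred in 2 or more mice. Summed markers of monocytes (all 8 detected in both groups) ranged from 1601 to 3274 CPM in control mice and from 6987 to 10247 CPM in cKO mice, those of dendritic cells (all 11 detected) from 643 to 754 CPM and from 123 to 279 CPM, and those of neutrophils (5 of 7 detected in control, all 7 in cKO mice) from 24.2 to 50.8 CPM and from 57.4 to 90.5 CPM. The neutrophil markers *S100a9* and *Retnlg* were at 0 in control mice. Without the dendritic cell-like, lymphoid-like and stromal-like clusters described further on, the log2 fold changes in all cells summed were 2.40 for *Isg15* (adjusted p = 2.3e-04, edgeR), 2.29 for *Usp18* (adjusted p = 3.3e-04), 1.67 for *Ube2l6* (adjusted p = 1.3e-04), 1.14 for *Herc6* (adjusted p = 0.082) and 0.58 for *Uba7* (adjusted p = 0.179). Monocyte-like cells are given within their own cluster, and the part of neutrophils was not tested. In sums of all cells a change in the makeup of cells and a change in RNA per cell cannot be told apart, so the same genes are given by cluster further on.

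*Isg15* was higher in the cells of cKO mice. The 4 control mice had 114, 64.2, 100.1 and 173 CPM (replicates 1 to 4), and the 4 cKO mice had 456, 502, 1029 and 660 CPM (replicates 5 to 8). The groups did not overlap, and cKO replicate 7 was the highest. The log2 fold change was 2.65 (SE 0.33, adjusted p = 0.0013, edgeR quasi-likelihood test over all 11387 genes), which is 6.30-fold, and it was the 32nd largest of the genes tested. All alternatives kept it past the threshold.

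*Usp18*, the protease, had 20.7, 26.3, 66.2 and 34.0 CPM in control mice and 94.5, 76.8, 138 and 127 CPM in cKO mice. Every cKO mouse lay above every control mouse, and control replicate 3 was the control mouse nearest to the cKO range. The log2 fold change was 1.83 (SE 0.33, adjusted p = 0.010, edgeR), or 3.56-fold. Without control replicate 2 it was 1.69 with an adjusted p of 0.0501.

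*Ube2l6*, the E2, was also higher in cKO mice. Control mice had 30.8, 33.6, 33.9 and 47.5 CPM and cKO mice 90.4, 82.8, 109 and 93.6 CPM. The log2 fold change was 1.47 (SE 0.18, adjusted p = 0.0013, edgeR), or 2.77-fold, with no overlap of the groups.

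The groups overlapped for the ligase and the E1. *Herc6* had 9.83, 13.8, 8.49 and 14.1 CPM in control mice and 10.0, 19.3, 42.2 and 33.7 CPM in cKO mice, so that cKO replicate 5, with 5 *Herc6* UMIs in all, lay within the control range. Its log2 fold change was 1.37 (SE 0.33, adjusted p = 0.039, edgeR), and the call was lost without any 1 of control replicates 1, 2 and 3 or cKO replicates 7 and 8 (adjusted p from 0.062 to 0.15) and without the dendritic cell-like, lymphoid-like and stromal-like clusters (1.14, adjusted p = 0.082).

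*Uba7* had 24.7, 18.04, 18.7 and 18.8 CPM in control mice and 26.1, 26.6, 33.0 and 24.5 CPM in cKO mice. Its log2 fold change was 0.56 (SE 0.19, adjusted p = 0.126, edgeR) and did not pass the threshold. Control replicate 1 and cKO replicate 8 overlapped in CPM, but after TMM scaling, which moved the median log2 difference of all genes from -0.11 to -0.02, all cKO mice lay above all control mice.

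Thus 4 of the 5 members rose and none fell, beside 2.99% of all genes tested that were called higher in cKO. For 3 of the 5 members the groups did not overlap with cKO above, beside 4.00% of all genes (5.85% after TMM scaling, where 4 of the 5 members did not overlap). The median log2 fold change of the members was 1.47, and that of all genes tested was -0.03. These shares are a description, since the genes were chosen with the direction known.

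**Figure D1:**
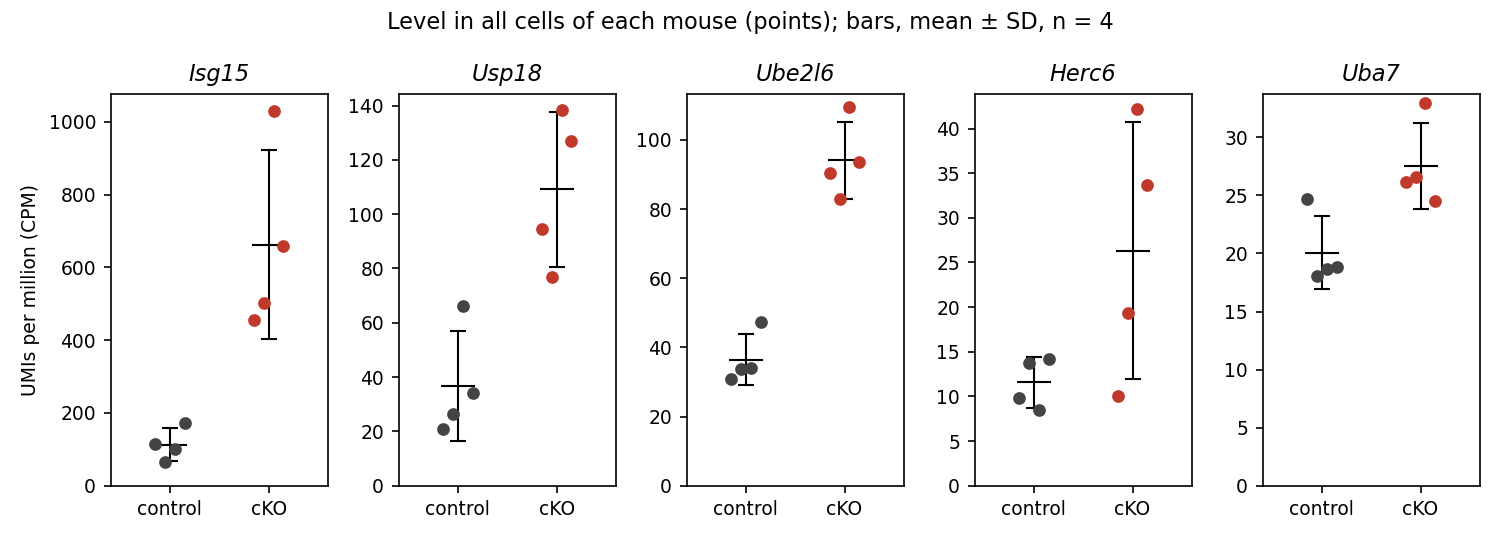
Level of each member in all cells of each mouse. The y axes give CPM on a linear scale from 0, points are the 4 control and 4 cKO mice, and bars are the mean ± SD. For *Isg15*, *Usp18* and *Ube2l6* all cKO points lie above all control points, while *Herc6* and *Uba7* overlap.

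The share of cells with an *Isg15* UMI was compared at equal depth, since a deeper cell is more likely to show a UMI. A higher level per cell also raises this share, so the share does not show whether more cells expressed the gene. After thinning each cell to 1000 UMIs (1764 control and 1271 cKO cells were deep enough), the share of cells with an *Isg15* UMI was 7.67, 5.99, 8.66 and 13.3% in control mice and 33.0, 29.6, 44.3 and 35.0% in cKO mice. All cKO mice lay above all control mice, and the difference was 26.6 percentage points (8.90 ± 3.12% against 35.5 ± 6.29%, SD, n = 4). By an exact permutation test, two-sided, p was 0.0286, the smallest that the 70 arrangements of 4 against 4 mice allow. Without thinning the shares were 25.1 ± 6.23% and 66.3 ± 6.89%.

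At the same depth 2.41 ± 1.07% of control cells and 8.29 ± 1.87% of cKO cells had a *Usp18* UMI, and the share with a *Ube2l6* UMI was 3.28 ± 0.961% and 8.27 ± 1.36%. In both genes the groups did not overlap. For *Herc6* the shares were 1.18 ± 0.251% and 2.46 ± 1.42%, and for *Uba7* 2.43 ± 0.543% and 2.75 ± 0.495%, differences within the spread between mice. No cell type of this sort is known to lack *Isg15*, so no share serves as a background for free RNA, whose part was not tested.

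**Figure D2:**
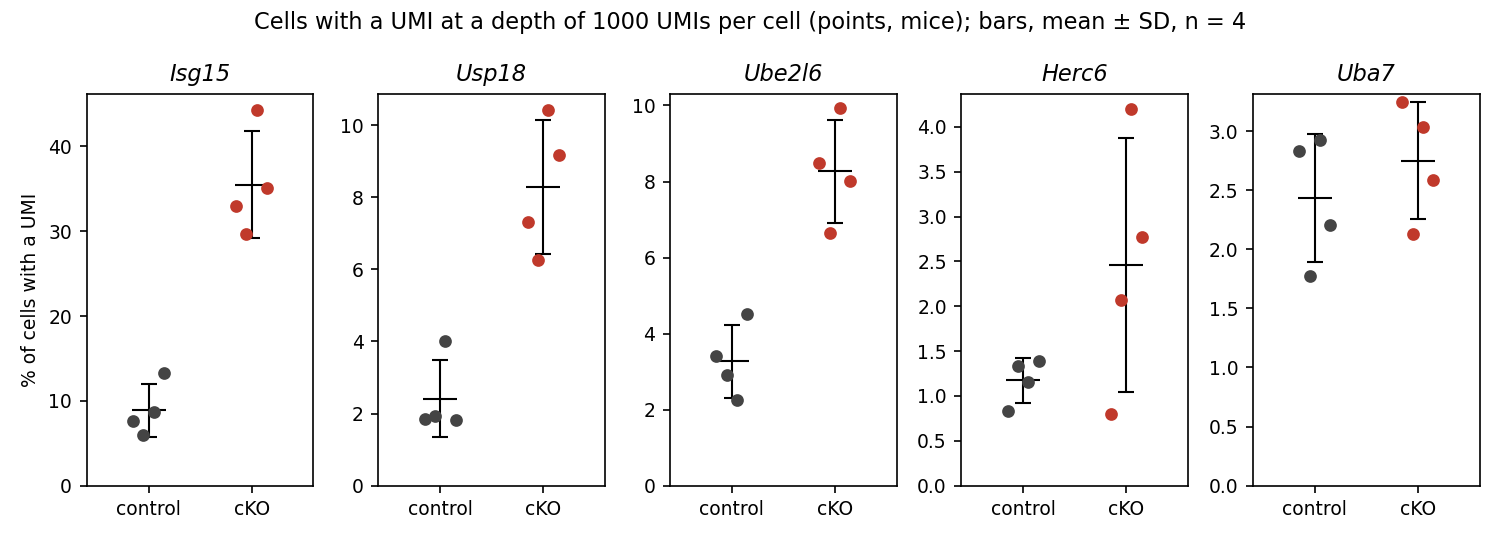
Share of cells with at least 1 UMI of each member, at a depth of 1000 UMIs per cell. The y axes give percent of cells from 0, points are mice, and bars are the mean ± SD. The *Isg15* shares lie between 5.99 and 13.3% in control mice and between 29.6 and 44.3% in cKO mice.

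*Isg15* was also unevenly spread among cells. Cells with 5 or more *Isg15* UMIs made up 1.58 to 4.37% of the cells of control mice and 13.2 to 27.9% of the cells of cKO mice, without thinning. A cell with any *Isg15* UMI held on average 2.12 to 2.799 of them in control and 4.07 to 7.03 in cKO mice. The tenth of cells richest in *Isg15* held 69.7 to 81.2% of its UMIs in control mice and 48.0 to 59.4% in cKO mice, a share that falls as the level rises.

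The cells were cut into 9 clusters, a number that was fixed and not found from the data. The clusters were defined by the transcriptomes after leaving out 297 genes. These were the 5 members, all the gene lists used here, the genes that the study lists as changed between cKO and control cells, and other genes that the study was about. Cluster 2 was monocyte-like (led by *Chil3*, *Ly6c2* and *Hp*, among others), cluster 3 dendritic cell-like (*Cd209a*, *Xcr1*, *Flt3*, *Itgae*), and clusters 4 (*C1qb*, *Adgre1*, *C1qa*, *C1qc*), 6 (*Fcrls*, *Pf4*, *Apoe*, *Stab1*) and 7 (*Ccl8*, *Pf4*, *Folr2*, *Fcrls*) macrophage-like. The leading genes of cluster 4 were only 2.1 to 2.32-fold above all other cells. Those of clusters 6 and 7 were 7.04 to 11.97-fold and 5.54 to 21.54-fold above, so cluster 4 was set apart less clearly as macrophage-like. Cluster 8 was lymphoid-like and cluster 9 stromal-like. Cluster 1, led by *Ccl24*, *Saa3*, *Ccl5* and *Il1a*, and cluster 5, led by *Cebpb*, *Ier5*, *Klf2* and *Jund*, stay unnamed because no marker fixed for a cell type led them. Cells of clusters 5 and 7 were shallow (medians of 1857 and 1171 UMIs). Cluster 2 held 3.53 to 9.84% of the cells of control mice and 14.5 to 37.4% of those of cKO mice, and cluster 3 held 19.6 to 27.3% and 4.55 to 9.45%.

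Sums of a mouse and cluster were used from 20 cells. No cluster of cKO replicate 5 reached that number, so the cKO group had 3 mice in every cluster, and control replicate 3 entered in cluster 3 only. Clusters 6 and 9 had no cKO mouse with 20 cells and could not be compared at this limit, and cluster 6 could be compared from 10 cells.

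In control mice the *Isg15* level was highest in cluster 1 (413 ± 221 CPM, n = 2) and next in monocyte-like cluster 2 (212 ± 39.1 CPM, n = 3), and the mice of these clusters did not overlap. Control replicates 2 and 3, with 10 and 12 cells in cluster 1 and so under the limit, had 133 and 153 CPM there, and with them the clusters overlapped. It was 158 ± 200.4 CPM (n = 3) in cluster 5 and 106 ± 9.60 CPM (n = 3) in macrophage-like cluster 7. The other macrophage-like clusters 4 and 6 had 89.8 ± 29.5 and 74.8 ± 25.0 CPM (n = 3 each), stromal-like cluster 9 had 77.3 CPM in its 1 mouse, dendritic cell-like cluster 3 had 67.8 ± 53.2 CPM (n = 4) and lymphoid-like cluster 8 had 63.2 ± 36.7 CPM (n = 3). From cluster 2 downwards, neighbors in this order overlapped. Among cKO mice (n = 3 each) cluster 1 was again first with 1193 ± 315 CPM, followed by cluster 5 (1030 ± 855 CPM), monocyte-like cluster 2 (729 ± 239 CPM) and macrophage-like clusters 7 (661 ± 427 CPM) and 4 (608 ± 138 CPM). Dendritic cell-like cluster 3 (361 ± 92.5 CPM) and lymphoid-like cluster 8 (334 ± 137 CPM) were lowest. Neighbors in that order overlapped except clusters 4 and 3, where the lowest mouse of cluster 4 (514 CPM) lay above the highest of cluster 3 (466 CPM). The order is a description of clusters made from the same cells, and it was not tested.

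**Figure D3:**
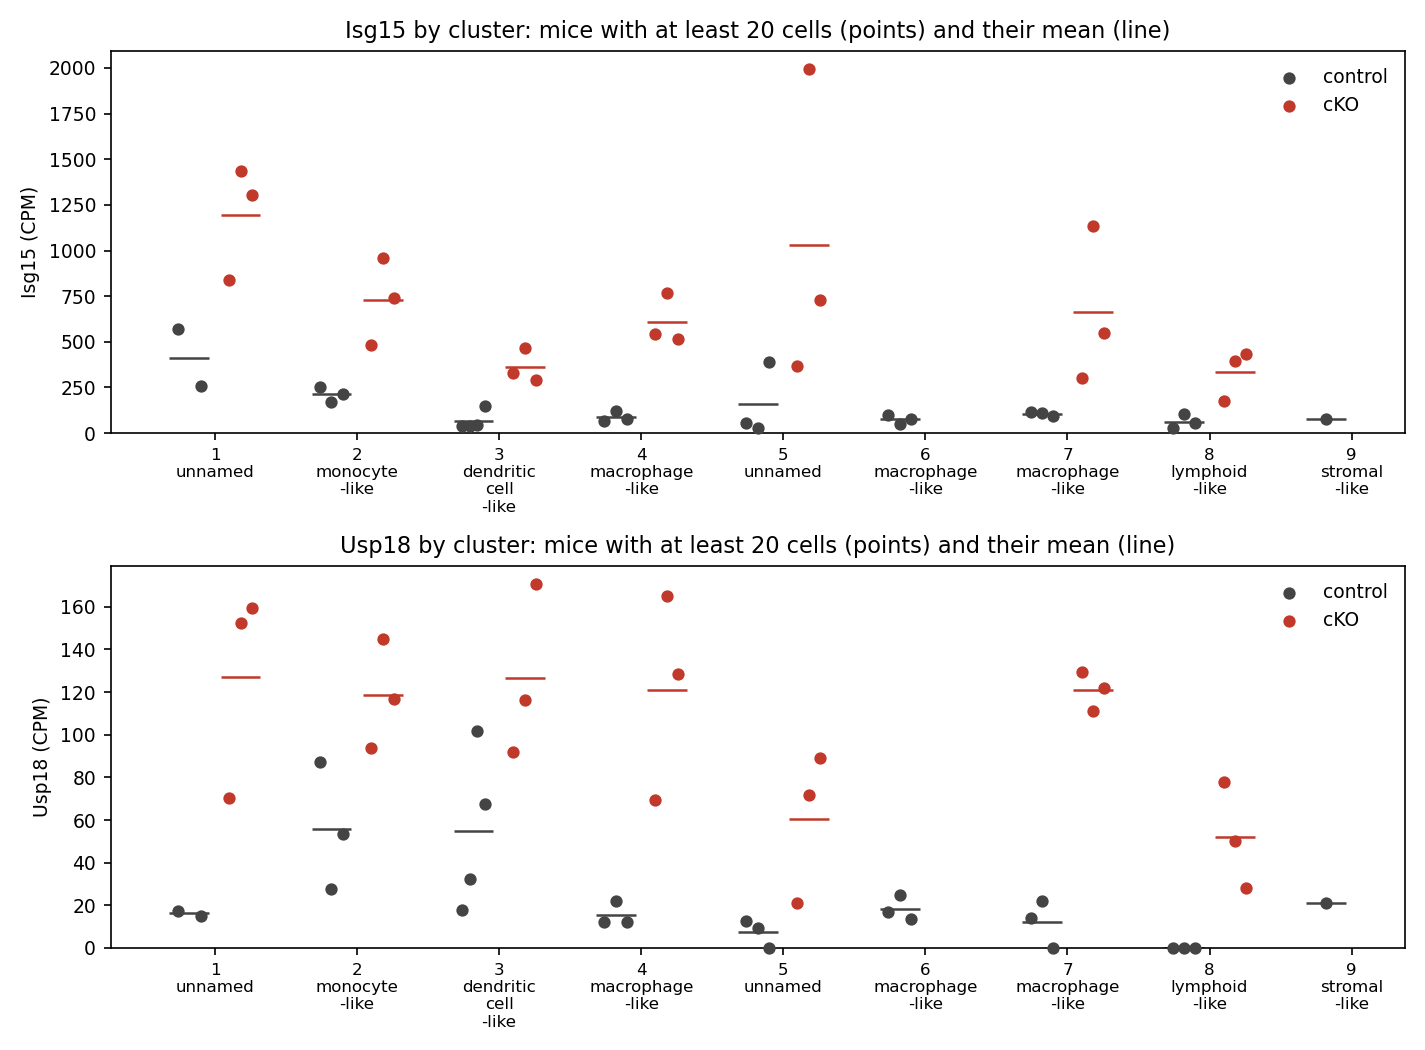
*Isg15* (top) and *Usp18* (bottom) by cluster and mouse. The y axes give CPM from 0, points are mice with at least 20 cells in the cluster, and lines are their means. cKO points lie above control points for *Isg15* in each cluster compared except cluster 5, where control replicate 4 (389 CPM) lies above cKO replicate 6 (368 CPM).

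*Isg15* was called higher in 4 of the 7 clusters compared, namely 2, 3, 4 and 5, and its log2 fold change was above 0 in all 7. In macrophage-like cluster 4 the control mice with enough cells (replicates 1, 2 and 4) had 67.2, 123 and 79.1 CPM and the cKO mice (replicates 6 to 8) 543, 766 and 514 CPM, a log2 fold change of 2.65 (SE 0.45, adjusted p = 1.0e-04, edgeR joint fit of 46 sums). In dendritic cell-like cluster 3 the 4 control mice had 39.5, 37.4, 47.0 and 147 CPM and the cKO mice 327, 466 and 291 CPM (2.30, SE 0.41, adjusted p = 7.0e-04). In both clusters the groups were apart, and both calls were kept without any 1 mouse. In cluster 3 cKO replicate 5, with 7 cells and so under the limit, had 61.2 CPM (5 UMIs), within the control range. The share of genes called higher in cKO was 0.542% in cluster 4 and 0.280% in cluster 3.

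In monocyte-like cluster 2 *Isg15* had 251, 172 and 213 CPM in control and 484, 961 and 742 CPM in cKO mice (log2 fold change 1.89, SE 0.43, adjusted p = 0.0075), where 1.0% of genes were called higher. The groups did not overlap, and the call was lost without control replicate 2, cKO replicate 7 or cKO replicate 8 (adjusted p from 0.051 to 0.079). In cluster 5 the values were 56.5, 28.7 and 389 CPM in control and 368, 1996 and 727 CPM in cKO mice (2.598, SE 0.52, adjusted p = 0.031), where 0.0181% of genes were called higher. This cluster overlapped and rested on few UMIs, 53 over all its control cells, and its call was lost without control replicate 1 or 2 or cKO replicate 7 or 8 (adjusted p from 0.076 to 0.64). It was also lost with limma-voom (adjusted p = 0.131), with likely doublets left out (adjusted p = 0.053) and with clustering on all genes (adjusted p = 0.071).

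*Isg15* was not called in the other 3 clusters. Its log2 fold change was 1.64 in cluster 1 (SE 0.46, adjusted p = 0.091), which had 569 and 256 CPM in 2 control mice and 838, 1438 and 1304 CPM in cKO mice. It was 2.66 in macrophage-like cluster 7 (SE 0.66, adjusted p = 0.0996), with 114, 109.9 and 95.4 CPM against 302, 1133 and 549 CPM, and 2.44 in lymphoid-like cluster 8 (SE 0.60, adjusted p = 0.076), with 29.9, 102 and 57.1 CPM against 177, 393 and 432 CPM. The groups did not overlap in any of these 3 clusters among mice with at least 20 cells. In cluster 8 cKO replicate 5, with 4 cells and so under the limit, had 40.5 CPM (1 UMI), within the control range. Without cKO replicate 6 all 3 passed the threshold (adjusted p from 0.021 to 0.033), as they did with no low-count filter and with each cluster fitted alone (adjusted p up to 1.1e-07). Cluster 1 was also called with limma-voom (1.97, adjusted p = 7.9e-05), with sums from 10 cells (1.91, adjusted p = 0.0012) and under graph clustering (1.98, adjusted p = 0.0038). It was not called with DESeq2 (adjusted p = 0.323), with likely doublets left out (0.126) or with clustering on all genes (0.220). Nor was it called without cKO replicate 7 or 8 (adjusted p = 0.343 and 0.374). Cluster 7 was also called with DESeq2 (adjusted p = 0.031) and under graph clustering (adjusted p = 0.022), and cluster 8 with DESeq2 (adjusted p = 0.044) and without control replicate 4 (adjusted p = 0.041), while neither was called with limma-voom (adjusted p = 0.506 and 0.312). Genes called higher made up 0.533% in cluster 1, 0.0813% in cluster 7 and 0.0723% in cluster 8.

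Thinned to 1000 UMIs, the share of cells with an *Isg15* UMI was higher in cKO in every cluster when cells of all mice were pooled. It went from 19.3 to 48.6% in cluster 1, from 14.9 to 39.8% in cluster 2, from 4.57 to 19.9% in cluster 3 and from 7.57 to 32.6% in cluster 4. Clusters 6 and 9, which had too few cKO cells at the limit of 20, had 4.88 and 7.99% in control and 19.6 and 18.5% in cKO cells. The pooled levels there were 72.9 CPM (107 UMIs) against 298 CPM (69 UMIs) in cluster 6 and 96.0 CPM (32 UMIs) against 217 CPM (20 UMIs) in cluster 9. These pooled values have no replicate error. With sums from 10 cells, cluster 6 had 99.4, 49.4 and 75.6 CPM in control replicates 1, 2 and 4 and 186, 388 and 329.9 CPM in cKO replicates 6 to 8 (10, 14 and 17 cells). In cKO replicate 8 all 19 *Isg15* UMIs came from 11.8% of its 17 cells. The groups did not overlap, and the log2 fold change of 1.79 did not pass (SE 0.55, adjusted p = 0.341, edgeR), where 0.0619% of genes were called higher. Cluster 9 had no test.

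*Usp18* was called higher in clusters 1 and 4. In cluster 1 it had 17.5 and 14.9 CPM in 2 control mice and 70.2, 152 and 159 CPM in cKO mice (log2 fold change 3.07, SE 0.51, adjusted p = 1.4e-04). In cluster 4 it had 12.1, 22.2 and 12.4 CPM in control and 69.5, 165 and 129 CPM in cKO mice (2.88, SE 0.45, adjusted p = 3.0e-05). The groups were apart in both, and both calls were kept without any 1 mouse wherever the cluster could still be compared. In cluster 4 control replicate 3 (8 cells) and cKO replicate 5 (15 cells) were under the limit. They had 145 CPM (9 UMIs) and 123 CPM (13 UMIs) there, and with control replicate 3 the groups overlapped.

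Clusters 2 and 3 held more *Usp18* in control mice, with 56.0 ± 29.7 CPM (n = 3) and 54.8 ± 37.7 CPM (n = 4), against 118 ± 25.6 and 126 ± 40.3 CPM (n = 3 each) in cKO mice. The log2 fold changes were 1.15 (adjusted p = 0.189) and 1.40 (adjusted p = 0.057) and did not pass. The groups were apart in cluster 2 and overlapped in cluster 3, where control replicate 3 had 102 CPM. Cluster 3 was called with limma-voom (adjusted p = 0.0079), with no low-count filter (6.1e-04) and without control replicate 3 or 4 or cKO replicate 6 (up to 0.021). It was not called with DESeq2 (0.268) or each cluster fitted alone (0.423). Cluster 2 was called with the latter (0.0020). In lymphoid-like cluster 8 no *Usp18* UMI was found in 92 control cells, which allows up to 3.26% of such cells to hold one (a limit that does not bear on cells expressing the gene below detection). The 93 cKO cells held 22 UMIs, 11 of them in replicate 6. Their pooled level was 7.09-fold that of a floor of 3 UMIs over the control group, and the change did not pass (adjusted p = 0.064, edgeR joint fit). This limit and this floor cover counting error of the control cells only, so the ratio is not a lower bound.

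*Ube2l6* was called higher in clusters 3 and 4. It had 25.8, 34.1, 35.3 and 62.4 CPM in control and 113, 139 and 88.0 CPM in cKO mice of cluster 3 (log2 fold change 1.40, SE 0.33, adjusted p = 0.030), and 25.3, 39.4 and 27.2 CPM against 117, 121 and 98.3 CPM in cluster 4 (1.76, SE 0.38, adjusted p = 0.0056). The call in cluster 3 was lost without control replicate 1 or 2 or cKO replicate 7 or 8 (adjusted p up to 0.285), with each cluster fitted alone (0.064), with sums from 10 cells (0.0507), with likely doublets left out (0.072) and with clustering on all genes (0.092), and that in cluster 4 without control replicate 1 (adjusted p = 0.141). Of the clusters compared, cluster 2 had the highest mean *Ube2l6* level in cKO mice (121 ± 16.2 CPM, n = 3, against 59.4 ± 3.24 CPM, n = 3, in control). Its log2 fold change of 1.17 did not pass (adjusted p = 0.112). Its cKO mice overlapped those of clusters 3 (113 ± 25.3 CPM) and 4 (112 ± 12.3 CPM, n = 3 each), and this order was not tested.

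*Herc6* and *Uba7* were called in no cluster in the main fit. *Herc6* had log2 fold changes from 0.42 in cluster 2 to 2.08 in cluster 8, leaving out cluster 7, where control cells held no *Herc6* UMI and all 5 in cKO cells came from replicate 7. *Uba7* differed most in cluster 4, with 8.81, 19.7 and 2.47 CPM in control and 39.1, 38.8 and 35.9 CPM in cKO mice (log2 fold change 1.76, SE 0.47, adjusted p = 0.060), and its values in cluster 2 were 33.4 ± 4.81 CPM in control and 29.7 ± 1.92 CPM in cKO mice (n = 3 each). In cluster 5 it had 25.1, 19.1 and 30.7 CPM in control and 10.5, 17.98 and 14.8 CPM in cKO mice, 1 UMI in each of the latter, so that all cKO mice compared lay below (log2 fold change -0.97, adjusted p = 0.860). cKO replicate 5, with 16 cells and so under the limit, had 54.0 CPM there. The log2 fold change of *Uba7* was above 0 in 4 of the 7 clusters. In cluster 4 *Uba7* was called with DESeq2 (adjusted p = 0.025), limma-voom (0.024), each cluster fitted alone (0.048) and no low-count filter (0.030). It was also called there without control replicate 2 (adjusted p = 0.014). With sums from 10 cells (0.068), likely doublets left out (0.054), clustering on all genes (0.418) and graph clustering (0.621) it was not called. The counts behind the values in cluster 4 were low, 19 and 38 *Uba7* UMIs over all control and cKO cells.

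Over the 5 genes, 8 of 35 pairs of gene and cluster were called, all higher in cKO, beside 0.361% of all 77483 pairs. The log2 fold change was above 0 in 32 of the 35, beside 43.7% of all pairs. Among mice with at least 20 cells in a cluster, all cKO mice lay above all control mice in 20 of the 35 (6 for *Isg15*, 6 for *Usp18*, 4 for *Ube2l6*, 3 for *Herc6* and 1 for *Uba7*), beside 5.38% of all pairs. They lay below them in 1, *Uba7* in cluster 5.

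Whether the size of the cKO effect differed between the 7 clusters was tested in the same joint fit, and none of the members passed (*Isg15* unadjusted p = 0.628, *Usp18* adjusted p = 0.593, unadjusted p = 0.0035), while 0.108% of genes did. At an unadjusted p under 0.05 1 member, *Usp18*, passed, beside 4.37% of all genes. With no low-count filter *Usp18* was called in this test (adjusted p = 7.8e-04), where 0.935% of genes were, and with limma-voom it was not (adjusted p = 0.245).

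EYFP, which reports the *Cx3cr1* promoter, was used to set cells with and without its transcript side by side. In control mice *Isg15* was at 122 ± 45.3 CPM in cells with an EYFP UMI and at 109 ± 53.2 CPM in cells without one (SD, n = 4 mice), and in cKO mice at 570.0 ± 145 CPM in cells with and at 666 ± 292 CPM in cells without one. Cells with an EYFP UMI had the higher level in cKO replicates 5 and 6 (590 against 410 CPM, and 698 against 480 CPM) and the lower in replicates 7 and 8 (630 against 1057 CPM, and 363 against 716 CPM). *Isg15* was thus higher in cKO than in control mice in both classes, with no overlap, and neither class was steadily above the other. Each cKO mouse had only 14 to 46 cells with an EYFP UMI. In cells with an EYFP UMI the groups overlapped for *Usp18*, *Ube2l6*, *Herc6* and *Uba7*. *Usp18* ranged there from 12.6 to 107 CPM in control and from 60.1 to 136 CPM in cKO mice. In cells without an EYFP UMI the groups overlapped for *Herc6* and *Uba7*, but not for *Usp18* or *Ube2l6*. For these classes no share over all genes was computed. Cells with an EYFP UMI were deeper in each mouse, and a cell without one may still use the promoter.

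The genes whose level followed that of *Isg15* most closely over the 46 sums of mouse and cluster were *Ifi213* (Pearson r = 0.843 of log2(CPM + 1)), *Ifi208* (0.817), *Ifi27l2a* (0.799), *Acod1* (0.775), *Ifit1* (0.770), *Ifi206* (0.765), *Ifit3b* (0.759), *Ifit3* (0.746), *Xaf1* (0.725) and *Oasl2* (0.719). Of these, *Acod1* makes itaconate and leads cluster 1, and the others belong to interferon-stimulated families. The members themselves followed *Isg15* less closely, with r = 0.592 for *Usp18*, 0.427 for *Ube2l6*, 0.415 for *Herc6* and 0.174 for *Uba7*. The sums share mice, conditions and depth, and low counts lower r, so these values are a description.

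Genes that work with ISG15 beyond the 5 members mostly did not pass. Of 12 further enzymes and receptors, 11 were tested (all except *Usp13*), 1 rose and none fell, and their median log2 fold change was 0.14. The 1 that rose was *Trim25*, a ligase for ubiquitin and ISG15, with 31.6, 40.1, 28.9 and 45.8 CPM in control and 64.3, 64.1, 64.8 and 54.7 CPM in cKO mice (log2 fold change 0.83, SE 0.17, adjusted p = 0.022, edgeR). *Itgal* and *Itgb2*, the chains of LFA-1, had log2 fold changes of 0.86 (adjusted p = 0.062) and 0.36 (adjusted p = 0.300). The E2 enzymes *Ube2l3*, *Ube2e1* and *Ube2e2* had 0.36, -0.15 and 0.14, the ligases *Arih1* and *Skp2* 0.10 and -0.52, and the proteases *Usp2*, *Usp5* and *Usp14* 0.53, -0.46 and -0.06, with adjusted p from 0.166 to 0.948.

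Of 17 genes whose proteins are reported substrates of ISG15, all tested, 4 rose and none fell, with a median of 0.15. Among them were *Ddx58* (RIG-I, log2 fold change 1.80, adjusted p = 0.0033) and *Ifih1* (MDA5, 1.27, adjusted p = 0.030), both sensors of viral RNA, and the kinase *Eif2ak2* (PKR, 1.02, adjusted p = 0.020). These 3 are themselves known interferon-stimulated genes. Among the 13 that were not called, *Irf3* had -0.29.

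The relatives of ISG15 were taken as a further list. Of 20 genes of other ubiquitin-like modifiers and their E1 enzymes, all tested, none was called (edgeR, and the lowest adjusted p was 0.073, for the SUMO E1 subunit *Sae1* with a log2 fold change of -0.65). The median was 0.04. The ubiquitin gene *Ubb* had 0.24, the ubiquitin E1 *Uba1* 0.16 and *Nedd8* -0.03.

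In the list of interferon receptor signaling 4 of 14 genes rose and none fell, with a median of 0.28. Among them were *Irf7* (log2 fold change 2.97, adjusted p = 2.4e-04), which drives type I interferon genes, *Stat2* (0.85, adjusted p = 0.027) and *Irf9* (0.67, adjusted p = 0.038), which act downstream of the type I receptor. The receptor chains *Ifnar1* and *Ifnar2* had 0.01 and 0.33, *Ifngr1* and *Ifngr2* -0.39 and 0.48, and the feedback inhibitor *Socs1* 1.6, none past the threshold (adjusted p from 0.103 to 0.986).

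Among 48 other interferon-stimulated genes, 46 were tested, 38 rose and none fell, with a median of 1.30. The largest changes among those called were those of *Ifi44* (4.34), the 2′-5′-oligoadenylate synthetase genes *Oas3* (3.08) and *Oasl2* (2.55), *Ifit3b* (2.57), *Ifit3* (2.47) and *Rsad2* (viperin, 2.45). On the log2 scale *Isg15* at 2.65 thus lay above the median of this list, *Herc6* at 1.37 and *Ube2l6* at 1.47 lay near it and *Uba7* at 0.56 below it. The list was drawn with the direction known and is not independent evidence of it.

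**Figure D4:**
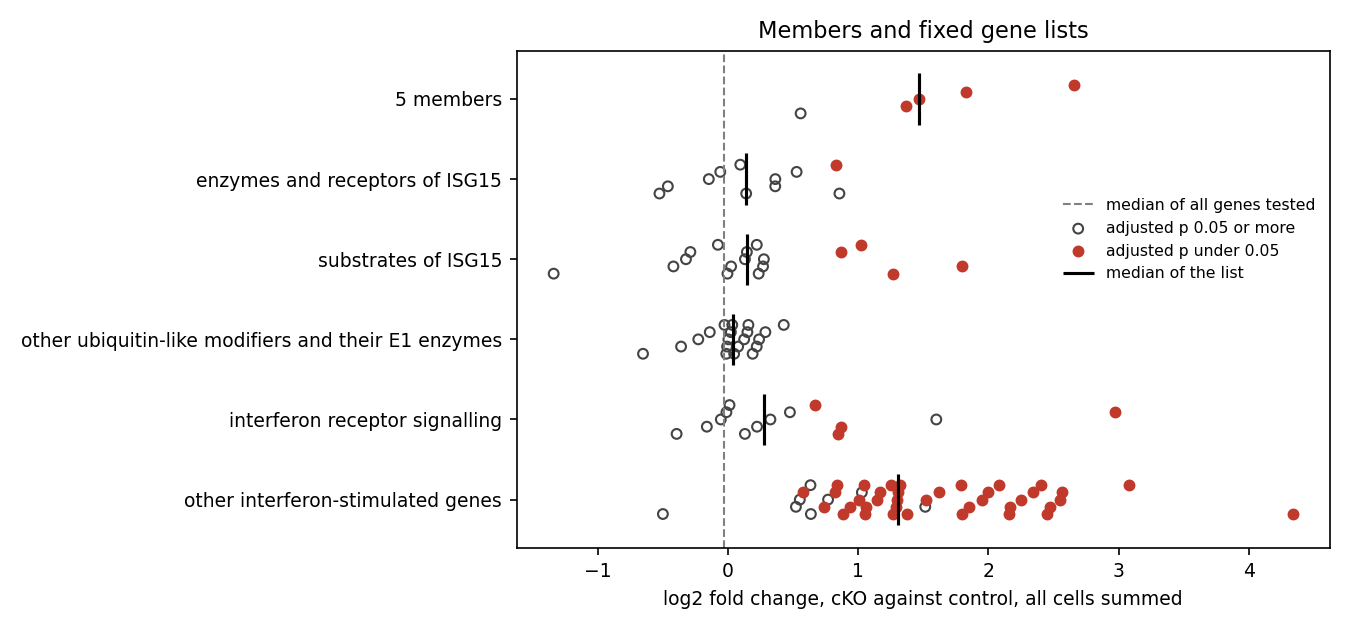
Log2 fold change, cKO against control, in all cells summed for the 5 members and 5 gene lists. Each point is a gene, filled where the adjusted p is under 0.05, black ticks are list medians, and the dashed line is the median of all genes tested (-0.03). The medians are 1.47 for the members, 0.14 for other enzymes and receptors of ISG15, 0.04 for other ubiquitin-like modifiers and 1.30 for other interferon-stimulated genes.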

How the data were processed

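Single cells were captured from 8 mice with a 3′ kit, 1 well per mouse on the same day. Per the study's methods and the submitters' processing notes, the authors aligned reads to mm10 with EYFP added, using Cell Ranger with STAR 2.5.3a, and deposited whole-number UMI counts per gene and cell, not normalized. Here cells were kept at a log10 UMI count of at least 2.8, a log10 gene count of at least 2.6, at most 5% mitochondrial UMIs and no hemoglobin UMI. Clusters came from scran 1.30.0 size factors and Ward clustering. Scrublet (scanpy 1.11.5) marked 22 control and 57 cKO cells as likely doublets, and they stayed in. Sums over the cells of a mouse, and over its cells in each cluster, were tested with edgeR 4.0.16 (R 4.3.3, TMM, quasi-likelihood). A gene was tested with over 1 CPM in 3 sums and a UMI in 20 cells. Adjusted p-values are Benjamini-Hochberg over all genes tested, at 0.05. The SE is the absolute log2 fold change over the square root of F, and edgeR raises p of under-dispersed genes to that of a Poisson test. In the joint fit sums of 1 mouse were treated as independent, and a limma-voom fit that took the mouse as random was an alternative. Shares of cells are expected values after thinning. DESeq2 1.42.0 was an alternative, and other alternatives are given in the closing section. The fits were also run on simulated data in which all sums were independent, so that run could not check how sums of 1 mouse were treated. Replicates are mice.

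Members and lists were chosen with earlier results of these data known. The genes named are the members, up to 6 genes per list with the largest changes past the threshold, the tested enzymes and receptors of ISG15, and the 10 genes most like *Isg15* among those with a mean of at least 10 CPM. *Irf3*, *Sae1*, *Ubb*, *Uba1*, *Nedd8*, *Ifnar1*, *Ifnar2*, *Ifngr1*, *Ifngr2* and *Socs1* are named outside that rule, after their values were seen. Some genes that the rule names are not reported here. Of 16889 genes, 88 had no symbol.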

Additional observations from a re-analysis of the deposited data

Results flagged for a closer look

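In 20 groups of 4 mice (5 genes, 2 conditions, level and thinned share), 2 held a mouse far from the others by Dixon's test, which chance does in about 1 of 20 groups. The share of cells with a *Usp18* UMI at a depth of 1000 UMIs was 4.01% in control replicate 3, with the next control mouse at 1.94%. The *Uba7* level was 24.7 CPM in control replicate 1, with the next control mouse at 18.8 CPM.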

How the results depend on the processing

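No sign changed in all cells summed, in the shares of cells or in the called pairs of gene and cluster. Over all 35 pairs, 17 of 570 refits changed sign (13 for *Uba7*, 3 for *Ube2l6*, 1 for *Herc6*), with adjusted p of at least 0.826. These refits include repeats, since cKO replicate 5 entered no cluster and leaving it out repeats the main fit. Leaving it out together with control replicate 3 likewise repeats the fit without control replicate 3. In all cells summed, leaving out 1 mouse gave log2 fold changes from 2.33 to 2.94 for *Isg15*, from 1.61 to 2.15 for *Usp18*, from 1.36 to 1.62 for *Ube2l6*, from 1.04 to 1.54 for *Herc6* and from 0.42 to 0.70 for *Uba7*, and 2 to 4 members called. *Isg15* and *Ube2l6* were called in each of the 6 other alternatives and *Uba7* in none, and *Herc6* fell to 1.14 (adjusted p = 0.082) without the dendritic cell-like, lymphoid-like and stromal-like clusters. Leaving out both mice with the fewest cells, chosen after seeing the data, also gave 4 members called, with *Usp18* at 2.22 (adjusted p = 0.0043). By cluster, pairs called ranged from 4 to 13 and clusters with *Isg15* called from 2 to 7 without 1 mouse. With no low-count filter they were 17 and 7, and with each cluster fitted alone 15 and 7. With no low-count filter 1 member (*Usp18*) was called in the test between clusters, and with 1 mouse left out there were 0 to 0. The causes were not tested. Graph clustering gave 14 clusters, each cluster was taken as its best match, and 4 of the clusters could be compared. The match (shared cells over cells in either) was 0.564 for cluster 1, 0.464 for cluster 4 and 0.959 for cluster 7. With clustering on all genes it was 0.526, 0.436 and 0.852, so such calls are not of the same cells. The difference in the share of cells with an *Isg15* UMI was 23.6 to 28.5 percentage points without 1 mouse. It was 27.3 without the pair with the fewest cells, where the smallest exact p is 0.10. No paired analysis was possible because the groups share no replicate numbers. Low counts of *Herc6* and *Uba7* limit what single clusters can show.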
